A study of Bos taurus with 2 samples.

Results

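The genes described here are the interferons, their receptors, the interferon regulatory factors and the genes that interferon induces, as they were measured in sperm RNA of bulls. A probe was a member when its description named interferon, or when its gene name began with IFN, IFIT or IRF and a digit, or was MX1, MX2, ISG15, OAS1X, OAS1Y or OAS2. SHFL was left out. The rule used no measured value and found 149 probes (169 spots) for 81 genes, of 51280 probes for 29081 gene names. The members were sorted by role into 13 interferons, 6 entries for interferon tau, 5 receptors, 11 interferon regulatory factors, 33 induced genes and 13 other genes whose description names interferon.

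The study compared spermatozoa of HF crossbred breeding bulls of high fertility with those of low fertility. Total RNA was primed with oligo-dT, labelled with Cy3 and hybridised to 1 Agilent array per group. How many bulls stand behind each array is not stated in the sources used here. No treatment, age or genotype beyond the cross is given, and both groups share sex, status and tissue. With 1 array per group the differences below have no replicate check, and they compare 2 arrays, not the fertility classes.

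Type I interferons, which include the alpha, beta, omega, kappa and tau families, are secreted cytokines that bind a receptor made of IFNAR1 and IFNAR2. Interferon gamma, the type II interferon, binds IFNGR1 and IFNGR2. Both receptors act through JAK kinases and STAT factors, and together with IRF factors these switch on antiviral genes such as MX1 and ISG15. Interferon tau is made by the ruminant conceptus and signals pregnancy to the mother, and in cattle the type I genes lie as many near-identical copies without introns in a cluster on chromosome 8.

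Many interferon probes are near copies of each other, so the sequences below show what a signal at one of them can and cannot tell apart. They are probe sequences of the array, 5′ to 3′, with positions on build HGSC Btau_3.1. Among the 29 probes for interferons and interferon tau, 16 shared a run of at least 16 bases with a probe for another interferon gene. The first set shows 4 probes of the alpha family. Capitals mark the run of 42 bases that the IFNAC and IFNAA probes share, and in the IFNA16 and IFNAG probes the runs of 26 and 20 bases that they share with the same IFNAC probe.
IFNAC probe, second: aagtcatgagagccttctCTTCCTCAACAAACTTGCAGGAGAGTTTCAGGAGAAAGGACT
IFNAA probe: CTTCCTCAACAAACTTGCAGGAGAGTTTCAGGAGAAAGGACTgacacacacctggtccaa
IFNA16 probe: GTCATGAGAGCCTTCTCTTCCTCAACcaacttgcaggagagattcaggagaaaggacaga
IFNAG probe: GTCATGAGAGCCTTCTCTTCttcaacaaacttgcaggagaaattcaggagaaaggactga
The IFNAC probe lies at chr8:24308652-24308711 on the plus strand, and the IFNAA probe at chr8:24308670-24308729 overlaps it. The IFNA16 probe lies at chr8:24367661-24367717 on the plus strand and the IFNAG probe at chr8:23965406-23965465 on the minus strand. Laid along each other without gaps, the IFNAG and IFNAC probes were identical at 55 of 58 bases. Signals at these 4 probes were not assigned to separate transcripts.

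The second set crosses the families. Capitals mark the run of 31 bases that an omega probe and a tau probe share, and the third line is the tau probe that gave the only signal measured on both arrays for that gene.
IFNW1 probe: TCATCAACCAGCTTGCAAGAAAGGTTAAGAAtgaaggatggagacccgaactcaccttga
IFN-tau-c1 probe, coding direction: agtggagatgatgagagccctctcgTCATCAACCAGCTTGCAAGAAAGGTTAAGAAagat
IFN-tau-c1 probe, opposite direction: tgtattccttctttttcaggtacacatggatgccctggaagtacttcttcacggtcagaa
The IFNW1 probe is placed on an unplaced contig. The coding probe for IFN-tau-c1 lies at chr8:24267816-24267875 on the plus strand. The opposite probe lies at chr8:24267731-24267790 on the minus strand and was designed from an expressed sequence tag of a conceptus library. Its reverse complement was identical to an IFNW1 probe at 28 of 31 aligned bases and to the probe of the omega-like gene LOC617135 at 35 of 41.

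Across the whole array, 14154 probes (27.6%) carried the scanner software's flag for a signal well above background on both arrays, which is called measured here, and 11206 gene names had such a probe. Levels are given as processed signal, the background-subtracted brightness of a probe, and differences as log2 of that signal after subtracting the array's 75th percentile over measured probes, high-fertile minus low-fertile. That percentile came to 148.6 for the high-fertile array and 186.3 for the low-fertile array, so a probe with no difference has a lower signal on the high-fertile array. The lowest signal flagged well above background was 22.6 and 30.3. The log2 differences of 2 spots of one probe had an SD of 0.28 (3038 probes), and those of different probes of one gene an SD of 0.41 (2182 genes). Of 10 sperm and spermatid markers, 5 were measured (PRM1, TNP1, TNP2, ODF1 and GAPDHS), while AKAP4, SMCP, TSSK6, SPEM1 and CRISP2 were not. Of those 5, 1 was 2-fold higher and 1 was 2-fold lower on the high-fertile array, with a median difference of 0.24 and a range from -1.10 to 1.22.

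No member gene differed 2-fold between the arrays under the scaling used here. Of the 34 measured member genes, 0 were higher by 2-fold or more on the high-fertile array and 0 were lower by as much, where 1.79% and 2.44% of all measured gene names did (4.23% in either direction). The median difference of the members was -0.07 against -0.0019 for all gene names, 21 members lay below 0 and 13 above, and their differences ran from -0.86 to 0.99. The median of the members turned to 0.00099 with the normexp background correction, 0.03 when scaled over all probes and 0.03 with the deposited matrix, where that of all gene names rose to 0.03, 0.10 and 0.10. The share below 0 was 61.8% among members and 50.3% among all gene names. Counting a probe only when all its spots were flagged, another 3 member genes were well above background on the high-fertile array alone. On the low-fertile array alone there were 5, and 39 were on neither. Of all 29081 gene names, 11206 were measured on both arrays, 1274 were on the high-fertile array alone and 1336 on the low-fertile array alone. In bulk RNA, fewer cells of a type and less RNA per cell cannot be told apart.

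**Figure D1:**
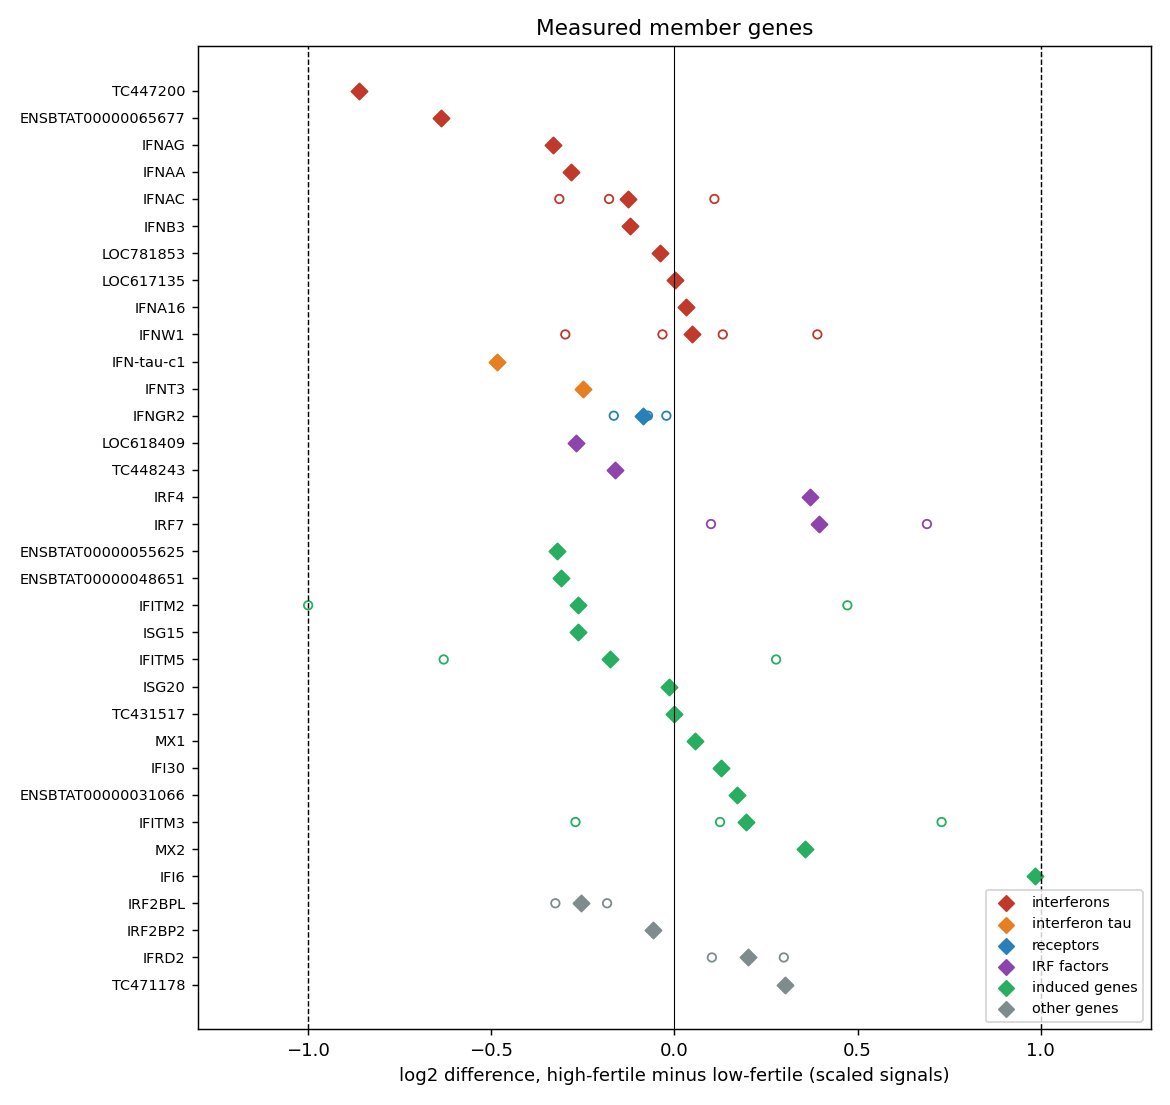
Log2 difference (high-fertile minus low-fertile, scaled signals) of each of the 34 measured member genes, coloured by role. Diamonds are gene means, open circles the single probes where a gene has several, and dashed lines mark a 2-fold difference. Every diamond lies between the dashed lines, from -0.86 for TC447200 to 0.99 for IFI6.

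The roles differed in how often their probes were measured. Of the 20 interferon probes other than tau, 15 (75%) were measured, for 10 of 13 genes. The other roles lay at 22.2% for tau (2 of 9 probes), 27.3% for receptors (3 of 11), 21.7% for IRF factors (5 of 23), 28.3% for induced genes (17 of 60) and 23.1% for other genes (6 of 26). The median GC content of the interferon probes was 45%, equal to that of all probes (45%), and it was 38.3% for the tau probes. Of the 16 interferon and tau probes that shared a run with another interferon gene's probe, 11 were measured, and of the 13 that did not, 6 were. Sharing was counted among these 29 probes only, so the 13 are not free of near copies elsewhere on the array. The LOC617135 probe, for example, is among the 13 but shares a run of 23 bases with the measured probe of LOC781778.

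**Figure D2:**
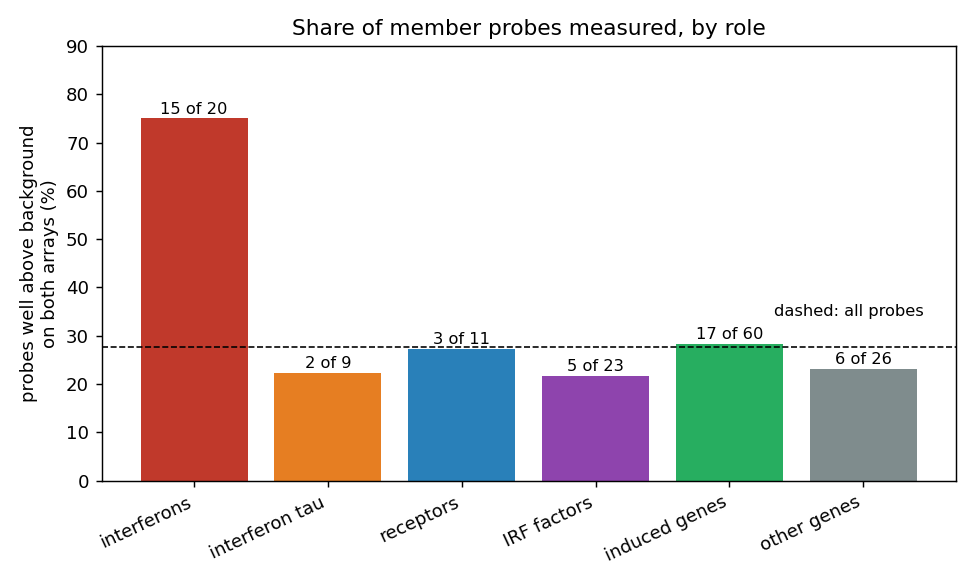
Share of member probes that were well above background on both arrays, in percent, by role, with the counts above the bars and the share over all probes (27.6%) as a dashed line. The interferons other than tau stand at 75%, and the other roles between 21.7% and 28.3%.

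Position was shared as well. The chromosome 8 stretch chr8:23637632-24713225 held 19 interferon and tau probes, of which 13 (68.4%) were measured. The 10 other probes placed in that stretch were measured in 6 cases (60%), against 353 of 1302 probes (27.1%) on the whole chromosome. All 6 of them, and 2 of the 4 that were not measured, shared a run of at least 16 bases with an interferon probe, although no description named them as interferon. The measured ones included LOC781778 (signal 254.5 on the high-fertile array and 309.9 on the low-fertile one) and LOC618801 (226.2 and 336.4). KLHL9, a ubiquitin ligase adaptor gene that lies in the cluster, was not measured. How many transcripts stand behind these signals was not tested.

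**Figure D3:**
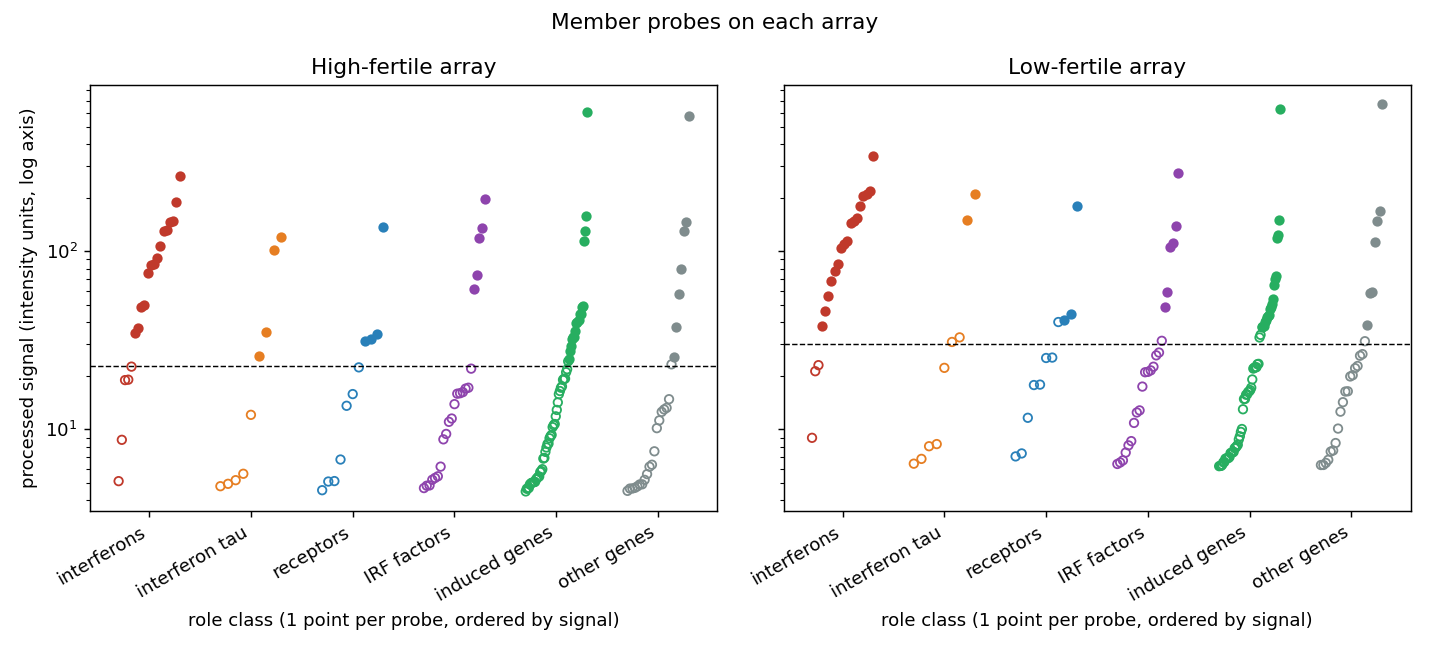
Processed signal (intensity units, log axis) of every member probe on the high-fertile array (left) and the low-fertile array (right), ordered within each role. Filled points were flagged well above background, open points were not, and the dashed lines mark the lowest signal of any flagged probe (22.6 and 30.3). Most interferon points are filled, and most points of the receptors, IRF factors and induced genes are open.

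Among the alpha interferons, antiviral cytokines of leukocytes, the values of the arrays lay close to each other. IFNAC was read by 3 probes at 148.2, 131.5 and 130.3 on the high-fertile array and at 210.4, 153.0 and 203.2 on the low-fertile array, a mean difference of -0.13 ± 0.22 (SD over 3 probes). Its probes lay on both sides of 0. IFNAA read 75.4 and 114.8 (-0.28), and IFNAG read 91.5 and 144.6 (-0.33). IFNA16 read 145.9 and 179.2, a difference of 0.03. All of these differences are under the SD of 0.41 between probes of one gene.

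The largest differences of the family came from 2 predicted transcripts. TC447200, described in the files as similar to a rat interferon alpha-1 precursor, read 37.1 on the high-fertile array and 84.5 on the low-fertile one, a difference of -0.86. ENSBTAT00000065677, which carries the same description but lies elsewhere in the cluster, read 34.8 and 67.9, a difference of -0.64. Each rests on 1 spot, and with the normexp background correction their differences shrank to -0.33 and -0.24.

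Interferon beta and omega are further families of the cluster. IFNB3 read 107.7 on the high-fertile array and 147.0 on the low-fertile one (-0.12). A probe described as similar to interferon beta-2, which shares a run of 16 bases with it, read 22.5 and 38.3 and was well above background on the low-fertile array only, at least 1.35-fold higher there. The pair is given with the shared run in capitals, since these names differ in detection although their probes were identical at 53 of 57 aligned bases.
IFNB3 probe: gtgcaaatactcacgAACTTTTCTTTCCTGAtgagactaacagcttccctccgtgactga
beta-2-like probe: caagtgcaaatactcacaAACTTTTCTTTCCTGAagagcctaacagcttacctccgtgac
They lie at chr8:24491118-24491177 and chr8:24480258-24480317, both on the plus strand. IFNW1, interferon omega, was read by 4 probes at 266.3, 189.5, 50.2 and 48.6 on the high-fertile array and at 341.6, 216.9, 77.4 and 46.5 on the low-fertile array. Their mean difference was 0.05 ± 0.29 (SD over 4 probes), with both signs among them. The omega-like genes LOC781853 (84.9 and 109.4, difference -0.04) and LOC617135 (83.4 and 104.5, difference 0.00057) did not differ by more than 1 SD of repeat spots.

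IFNK, interferon kappa, known from human keratinocytes, lies apart from the cluster and shares no such run. Its probe at chr8:17157027-17157086 on the minus strand is shown because both of its spots gave the same picture, and nothing in it is in capitals.
IFNK probe: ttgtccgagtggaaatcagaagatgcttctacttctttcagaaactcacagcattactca
The spots read 19.7 and 18.4 on the high-fertile array and 57.7 and 54.8 on the low-fertile array, and were well above background on the latter only. The gene was at least 1.98-fold higher on the low-fertile array, just short of 2-fold. A second IFNK probe, also with 2 spots, was detected on neither, so the gene's probes disagree. Interferon gamma, the T cell and natural killer cell cytokine IFNG, had 2 probes and neither was detected.

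Interferon tau was measured for 2 of 6 entries. IFNT3 read 101.1 on the high-fertile array and 150.8 on the low-fertile one (-0.25), while its second probe was not well above background. IFN-tau-c1 read 119.8 and 210.4 (-0.49) at the opposite-direction probe shown above. The coding-direction probes of the same gene read 25.9 and 32.9, well above background on the high-fertile array only, and 12.1 and 8.05, on neither. The gene's value thus rests on the probe that lies on the other strand from the remaining 2. The entry IFN-TAU was well above background on the high-fertile array only, at 35.2 against 31.0, a difference of 0.51 at 1 spot. IFNT, LOC781815 and TC433587 were on neither.

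The 12 measured interferon and tau genes together had a median difference of -0.19, with 3 above 0 and 9 below. Against the median of all gene names, that group stayed between -0.02 and -0.22 under the 10 alternative settings. These genes are not independent readings, since their probes share sequence.

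IFNGR2, the signalling chain of the interferon gamma receptor, was the one receptor measured. The 3 of its 5 probes that were measured read 136.2, 32.4 and 31.5 on the high-fertile array and 179.6, 41.2 and 44.3 on the low-fertile array. They gave a difference of -0.09 ± 0.07 (SD over 3 probes). That mean lay between 0.0024 and 0.02 with normexp, all-probe scaling and the deposited matrix. Its other 2 probes gave 0.10, detected on the high-fertile array only, and 0.14, detected on neither, and with no filter on dim probes the gene stood at -0.0040. IFNAR1 and IFNAR2, the chains through which all type I interferons act, had no measured probe, and neither did IFNGR1, the ligand-binding chain for interferon gamma, nor IFNLR1, the receptor chain for interferon lambda.

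Among the IRF factors, IRF7, which drives the type I interferon genes, was measured by 2 probes that share 54 of their 60 bases. They read 135.6 and 118.3 on the high-fertile array and 105.4 and 138.5 on the low-fertile array, giving 0.39 ± 0.42 (SD over 2 probes). The first gave 0.69 and the second 0.10. IRF4, a lymphocyte factor, read 61.3 and 59.4 (0.37) at 1 of 2 probes. The IRF10-like gene LOC618409 read 73.5 and 111.0 (-0.27).

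A transcript cluster described as part of IRF3, the factor that virus sensing activates, TC448243, read 196.3 on the high-fertile array and 275.8 on the low-fertile one (-0.16). The 2 probes named IRF3 stayed below the detection flag on both arrays. IRF1, IRF2, IRF5, IRF8 and IRF9, the last a DNA-binding partner of STAT2, were on neither array.

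Among the induced genes, IFI6, a mitochondrial protein that interferon alpha induces, had the largest difference among the 34 genes measured on both arrays. Its 1 probe, with 1 spot, read 114.3 on the high-fertile array and 72.4 on the low-fertile one, a difference of 0.99. Its signal was thus higher on the high-fertile array before scaling too. A further IFI6 probe outside the rule read 5.60 and 8.09, below the detection flag on both, and with the normexp background correction the difference was 0.54. Under 4 other scalings IFI6 was past 2-fold (75th percentile over all probes, median, quantile normalization and the deposited matrix), and with spike-in scaling it stood at 0.39.

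Of the 33 induced genes 13 were measured, and the share of their probes (28.3%) was close to that of all probes (27.6%). MX2, a GTPase that blocks viruses, read 48.5 and 47.5 (0.36). MX1, its paralog, read 35.5 and 42.8 (0.06) at 1 of 3 probes. ISG15, the ubiquitin-like protein that tags targets of the interferon response, read 24.9 and 37.4 (-0.26) at 1 of 2 probes. ISG20, an RNA exonuclease, read 40.0 and 50.7 (-0.02) at 1 of 3 probes. TC431517, described as part of the RNA editor ADAR, read 33.0 and 41.4 (-0.0017) at 1 of 2 probes. The OAS genes, whose products make the activator of RNase L, were not well above background at any probe of OAS1X, OAS1Y and OAS2, and neither were the member probes of IFIT1, IFIT2, IFIT3, IFI35, IFI44L, IFI47, IFIH1, IFI27L2, ISG20L2, LOC508070, LOC511531, LOC514011, LOC613699 and the 5 probes of GBP1. An IFI27L2 probe that the rule does not catch was measured at 74.3 and 64.6, and such a probe of LOC613699 was detected on the high-fertile array only, at 30.7 against 22.3.

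IFITM1, IFITM2 and IFITM3 encode membrane proteins that stop viruses from entering cells. IFITM5 is known for its role in bone and was counted among the induced genes by its description only. Probes of one gene disagreed in direction. The pair of IFITM2 probes, which share 54 of their 60 bases, read 44.4 and 49.3 on the high-fertile array and 40.1 and 123.7 on the low-fertile array. They thus differed by 0.47 and -1.0003, a mean of -0.26 ± 1.04 (SD over 2 probes), so the direction depends on the probe. IFITM5 read 605.0 and 626.0 at one probe (0.28) and 27.7 and 53.8 at the other (-0.63), a mean of -0.18 ± 0.64. IFITM3 read 157.8, 130.2 and 32.0 on the high-fertile array and 119.3, 149.8 and 48.5 on the low-fertile array, a mean of 0.19 ± 0.50 over 3 probes of both signs. The third of these lies elsewhere on the same unplaced contig and on the other strand. IFITM1 was on neither array.

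**Figure D4:**
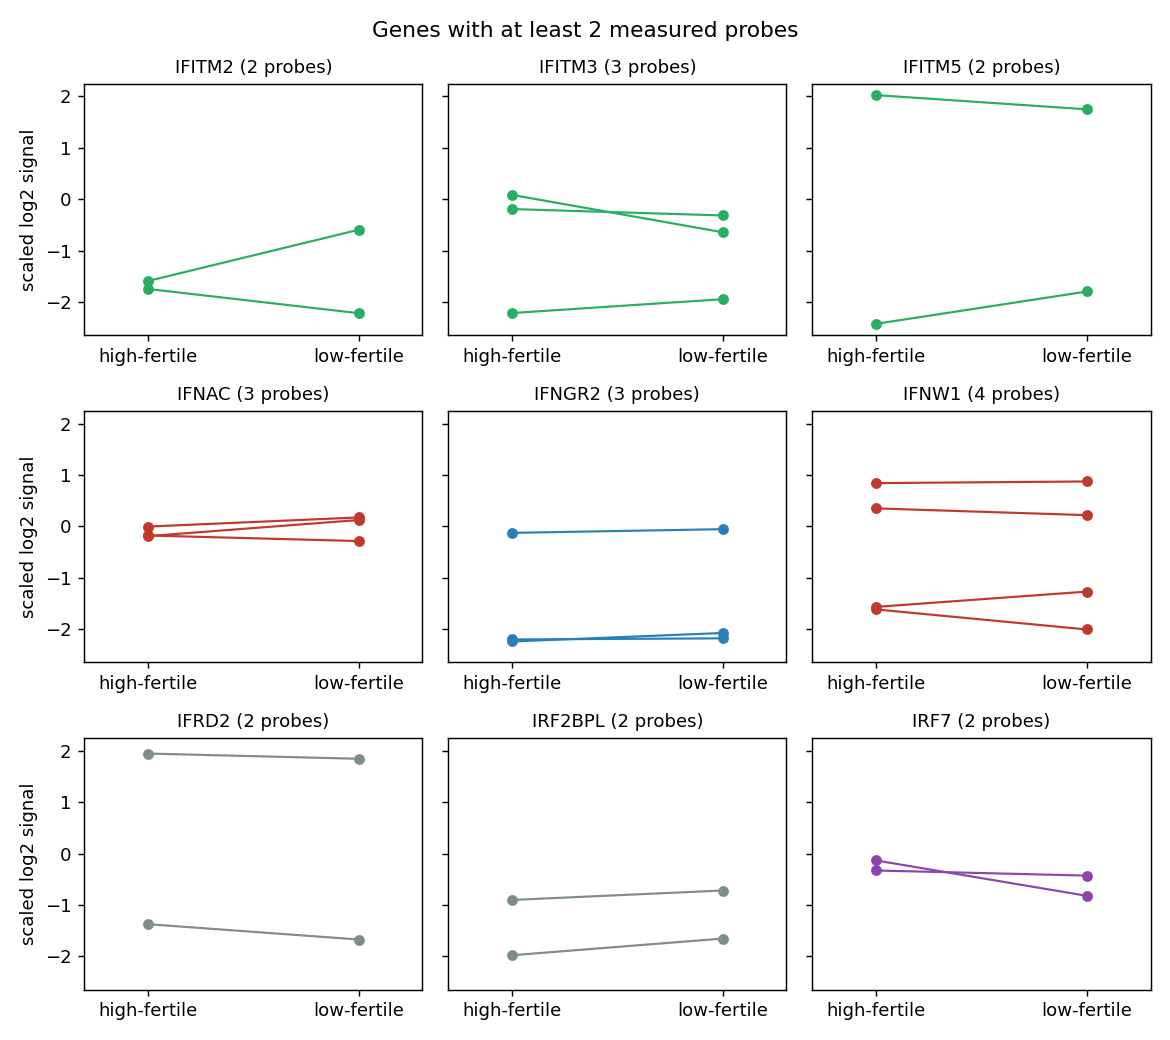
Scaled log2 signal on the high-fertile and the low-fertile array for each probe of the 9 member genes with at least 2 measured probes, 1 line per probe. Lines of IFITM2, IFITM3 and IFITM5 slope in both directions, and those of IFNGR2, IFRD2 and IRF2BPL each slope in one direction.

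The remaining measured induced genes differed by at most 0.32 on the log2 scale. IFI30, the thiol reductase of antigen processing, read 33.0 and 37.9 (0.13) at 1 of 2 probes. ENSBTAT00000031066, described as interferon-induced protein 44-like, read 39.4 and 43.9 (0.17) at 1 of 3 probes. The probe described as protein 44, ENSBTAT00000048651, read 44.7 and 69.5 (-0.31), which became -7.3e-05 with normexp. ENSBTAT00000055625, described as an interferon-induced very large GTPase, read 41.3 and 64.7 (-0.32). The probe of LOC508070, which carries the same description and lies beside it on the same contig and strand, was detected on neither array. Of the genes seen on one array, IFI16, a DNA sensor, read 21.8 and 43.2 (at least 1.52-fold higher on the low-fertile array). An IFI16 probe that the rule does not catch read 19.9 and 41.9, again well above background on the low-fertile array only. IFIT5, an RNA-binding protein of the IFIT family, had 1 probe with 2 spots, which averaged 29.5 and 33.9 (0.13). One spot read 28.5 and 41.0 and was well above background on both arrays (-0.20). The other read 30.6 and 28.1 and was so on the high-fertile array only (0.45). The spots thus differed in direction, and the gene was counted under the high-fertile array only because both spots had to be flagged.

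The other genes whose description names interferon are mostly not part of the response. IFRD2, which binds ribosomes in rabbit reticulocytes, was measured at 2 of 3 probes. They read 572.3 and 668.7 at one and 57.4 and 58.5 at the other (0.20 ± 0.14, SD over 2 probes). Of the IRF2-binding repressors, IRF2BP2 gave -0.06 (129.2 and 168.8) at 1 of 4 probes, and -0.52 with no filter on dim probes. IRF2BPL gave -0.25 ± 0.10 over 2 of 3 probes (79.5 and 37.7 against 113.3 and 59.3). TC471178, described as part of IRF2BP1, gave 0.30 (145.3 and 147.8). LOC517016, which the files name IL6, read 13.2 and 38.6 (at least 1.36-fold higher on the low-fertile array). Its probe lies at chr8:24746995-24747054, past the end of the interferon stretch, while the 2 other probes named IL6 lie on chromosome 4. LOC523963, described as IRF2BP1 like TC471178, read 25.4 and 22.7 (at least 1.05-fold higher on the high-fertile array). IFRD1, IL18, IL6, PRKRA, THAP12, TC396308 (described as PRKRA) and TC398729 (described as IRF2BP2) were on neither array. Of all member genes on 1 array only, 0 had a bound of 2-fold or more. Over the whole array 7.46% of the gene names on the high-fertile array alone and 17.4% of those on the low-fertile array alone did.

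A list of 58 pathway genes that the rule does not catch was read the same way. Of these, 24 were measured, with 11 above 0, 13 below, 0 past 2-fold in either direction and a median of -0.05. The lowest were TYK2, the kinase of IFNAR1, at -0.89 (signals 4895 and 11383) and UBE2L6, which conjugates ISG15, at -0.46 (53.4 and 92.0). Each was measured at 1 of 2 probes. The highest were TRIM25, the ubiquitin ligase of the RNA sensor RIG-I, at 0.87 over 2 of 3 probes and MAVS, the adaptor of that sensor, at 0.86 (554.3 and 382.6). The 2 measured TRIM25 probes gave 1.27 (800.6 and 417.3), past 2-fold by itself, and 0.47 (78.3 and 71.0). The third TRIM25 probe read 25.2 and 40.2, was detected on the low-fertile array only and gave -0.35. JAK1, JAK2 and STAT2 were not measured.

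Leukocytes are the cells that make and answer interferon most strongly, and 7 of 10 leukocyte markers were measured (among them PTPRC, CD14, CD3D, CD68, ITGB2 and LYZ), with 0 past 2-fold and a median difference of -0.08. ITGAM, CD3E and CSF1R were not measured. The summed level of the 7, in multiples of the array's 75th percentile, was 48.0 on the high-fertile array and 57.1 on the low-fertile one. Of 6 testis somatic markers 5 were measured, 2 above 0 and 3 below. Their median difference was -0.02, with a range from -0.32 to 0.76, and their summed level was 47.0 and 29.3. Of 7 epithelial markers 4 were measured, all above 0, with a summed level of 3.03 and 2.51. The 5 sperm markers summed to 3.84 and 3.74. Each sum is to be read between the arrays only, since levels of different probes cannot be compared. The part of these cell types in the member signals was not tested.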

How the data were processed

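Total RNA of spermatozoa was hybridised to 1 array per fertility group, labelled with Cy3 per the labels' protocols. The deposited scanner tables give the intensity of each spot, and the file headers name Agilent Feature Extraction 11.5.1.1 and probe positions on HGSC Btau_3.1. The processed signal had its background subtracted within each array, per the file headers. The deposited matrix holds log2 values: they equalled the log2 processed signal plus a constant per array (-5.12 and -5.55) within 0.01 for 98.6% of probes on each array, with column medians of -1.43 and -1.37, so their scale is known and genes were not centred.

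From 61657 non-control spots per array, 9 outlier-flagged spots were left out, and 0 were saturated. Since under 50% of probes were detected, log2 processed signals were centred on each array's 75th percentile over probes well above background on both arrays. Spots were averaged per probe, and measured probes per gene name. A probe counted as well above background on an array only if all its spots were. A gene well above background on 1 array had its bright probe compared with a bound on the other array: its dim signal there, or the lowest detected signal if that was higher. Member probes were named by accession (93), by symbol (25), kept the file's name (18), or by the description or another rule (13), with the RefSeq table of assembly ARS-UCD2.0 used for names only. Every measured member gene is named. Results for a few genes are not reported here. Members, roles and lists were chosen with earlier results of these data known. On simulated data, the calculation recovered 200 of 200 genes changed for this comparison (11206 genes) and also called 3 unchanged genes. That checks the calculation only and gives no error rate for the counts above. Python 3.11.15, pandas 2.3.3 and limma 3.58.1 were used. The number of arrays limits the precision, and no p-value is given. The alternatives were normexp (offset 50), other scalings, no or a stricter filter (4 times the lowest well-above-background signal), the brightest probe per gene, the deposited matrix and leaving out spots in patches.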

Additional observations from a re-analysis of the deposited data

How the results depend on the processing

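The count of member genes at least 2-fold higher was 1 (IFI6), not 0, under 4 settings: scaling to all probes' 75th percentile, to the median of detected probes, quantile normalization and the deposited matrix values. The count at least 2-fold lower was 3 with spike-in scaling (ENSBTAT00000065677, IFN-tau-c1 and TC447200), 4 of 81 genes with no filter on dim probes (IFNGR1, IFRD1, LOC517016 and TC396308) and 1 with the brightest probe per gene (IFITM2). Spike-in scaling moved the median of the members to -0.67 and that of all gene names to -0.60, so relative to all gene names the members stayed at -0.07. With the deposited matrix the median of all gene names was 0.10, and without the filter it was -0.12. Scaling by spike-ins, by the median, by all probes or with the matrix values shifts genes by one constant or nearly so, while quantile normalization does not. The cause of the other moves was not tested.

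Across all gene names 201 were higher and 273 lower as reported, 65 and 47 with normexp, 277 and 199 scaled to all probes' 75th percentile, 249 and 227 with the median, 32 and 1740 with spike-in scaling, 654 and 1546 with no filter and 121 and 44 with the stricter filter. Without the filter IFN-tau-c1 stood at 0.14 in place of -0.49. Signals near the background limit most members: 91 of 149 probes were well above it on neither array. This is not particular to the members, since 32.2% of their probes were measured on both arrays against 27.6% of all probes. No paired analysis was possible because each group has 1 array. No replicate could be left out for the same reason.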
